A study of Mus musculus with 46 samples.

Results

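Falcor knockdown was set directly against ZC3H11A knockdown in AML12 cells, a mouse hepatocyte line, by RNA sequencing. The comparison used 6 of the 46 libraries of the series. They were chosen by their columns in the deposited count table of conventional hairpins, 3 with a hairpin against Falcor and 3 with a hairpin against ZC3H11A. The 3 libraries with a control hairpin in the same table entered no test here, and their levels are given beside the others for many genes but not all. Higher and lower describe the contrast of the knockdowns, and do not say which of them differs from the controls. All 9 libraries were made from total RNA depleted of ribosomal RNA, with a strand-specific kit, per the labels' protocols. The other 37 libraries came from AML12 lines with an inducible hairpin and from livers of Falcor knockout and control mice, and were not used. AML12 was established from hepatocytes of a mouse that carried a transgene for transforming growth factor alpha, so every group shares that background. The labels do not say how many hairpins were used per target, whether a line was a clone, or whether replicates came from separate cultures. So p-values here reflect only how far libraries of a group differ, and that variation may be technical.

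Falcor is a long noncoding RNA transcribed beside Foxa2, which encodes a forkhead transcription factor of endoderm and liver. Nuclear speckles are bodies rich in splicing factors and in components of TREX, the complex that couples transcription and splicing to mRNA export. ZC3H11A is a zinc finger protein that associates with TREX and has a role in mRNA export. Per the series' design text, the conventional hairpins addressed how Falcor and ZC3H11A act together on downstream genes. A direct contrast asks at which genes the cells with either hairpin differ from each other.

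Library totals were 4474760 to 8837581 counts over the 9 libraries. Levels are CPM, counts scaled by library size with factors from trimmed means of M-values (TMM). The log2 CPM of libraries correlated across genes at 0.970 to 0.979 within a group and at 0.887 to 0.901 between the knockdowns. Mitochondrial RNA took 6.41 to 9.12% of the counts in the 9 libraries.

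Each hairpin's target was checked first. Falcor, listed as 9030622O22Rik, is a lincRNA on the minus strand of chromosome 2, from 147944740 to 148040203 in mm10. It had 7, 4 and 5 counts in the Falcor knockdown libraries, 4, 3 and 6 in the ZC3H11A knockdown libraries and 38, 11 and 24 in the controls. Both knockdowns thus lay below every control library, and they overlapped each other. Over the 3 libraries the 16 counts under the Falcor hairpin and the 13 under the ZC3H11A hairpin gave a ratio of 1.06 after scaling, with an exact 95% interval of 0.477 to 2.39 that covers counting error only. Falcor was too low to be tested among the other genes. The level of Falcor itself therefore did not separate the groups, and a difference smaller than that interval was not detectable at this depth.

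Zc3h11a spans 133619862 to 133661380 on chromosome 1 (mm10), minus strand. It stood at 38.8, 32.3 and 41.0 CPM in Falcor knockdown, at 4.58, 14.1 and 5.96 CPM in ZC3H11A knockdown and at 65.1, 67.9 and 59.2 CPM in the controls. The 3 groups did not overlap. The log2 fold change of Falcor knockdown over ZC3H11A knockdown was 2.27 ± 0.36 (SE), with an adjusted p of 0.00121 by edgeR's quasi-likelihood test. Zbed6, a transcription factor gene that sits inside Zc3h11a on the same strand (133655879 to 133660885), averaged 42.3 ± 10.6 CPM (SD, n = 3) and 45.5 ± 6.55 CPM in the knockdowns, against 128 ± 16.6 CPM in the controls. Its difference between the knockdowns did not pass the test (log2 fold change -0.10 ± 0.18, adjusted p = 0.674, edgeR), and its sign turned without shFalcor replicate 1 (0.09). How the counting divided reads between these nested genes is not given in the sources used here.

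Foxa2 lies 2674 bases from the annotated start of Falcor, on the same strand (148042877 to 148046969). It stood at 35.5, 31.3 and 35.4 CPM in Falcor knockdown, at 97.9, 92.6 and 118 CPM in ZC3H11A knockdown and at 92.8, 93.8 and 104 CPM in the controls. The Falcor knockdown libraries were the low ones, and the ZC3H11A knockdown and control libraries overlapped. Foxa2 was lower in Falcor knockdown by edgeR (log2 fold change -1.58 ± 0.10, adjusted p = 2.36e-09), although the Falcor counts of the knockdowns did not differ detectably. Foxa3, a forkhead factor encoded on chromosome 7, was higher instead (11.7 ± 1.88 against 4.07 ± 1.24 CPM, and 11.4 ± 1.97 CPM in the controls; log2 fold change 1.57 ± 0.27, adjusted p = 0.000124, edgeR). The other tested gene within 500 kb of Falcor was Cd93, at -0.55 ± 0.47 (adjusted p = 0.332, edgeR).

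**Figure D1:**
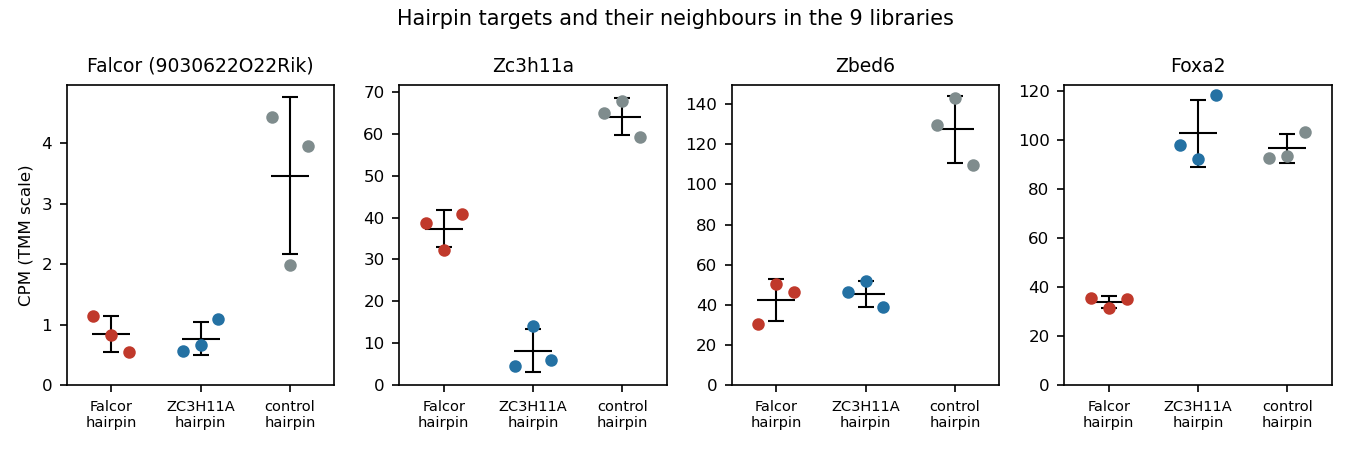
CPM on the TMM scale of Falcor, Zc3h11a, Zbed6 and Foxa2 in each of the 9 libraries, as points, with the mean and SD of each group of 3 in black. Falcor is low under both hairpins, Zc3h11a is lowest under the ZC3H11A hairpin, and Foxa2 is low under the Falcor hairpin, at 34.1 CPM on average.

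Across the transcriptome the hairpins differed at more genes than not. Of 11439 genes tested, 6618 (57.9%) differed at an adjusted p below 0.05 by edgeR's quasi-likelihood test. They were evenly split, with 3314 (29.0%) higher and 3304 (28.9%) lower in Falcor knockdown. A change of at least 2-fold was fitted for 1220 of the higher genes (10.7% of those tested) and 1205 of the lower genes (10.5%). The median log2 fold change over all tested genes was 0.00, and the median size among called genes was 0.80. The 3 libraries of one knockdown lay wholly above or below those of the other for 7302 genes (63.8%), among them 6458 of the 6618 called. Where only library totals were used for scaling, 61.4% rather than 50.1% of the calls were higher, with the median of all genes shifted by 0.15, so the even split rests on the scaling. With so many genes called, each list below is read against 29.0% higher and 28.9% lower. These shares rose with mean CPM, from 19.9% higher and 14.2% lower in the lowest of 5 bins to 34.9% and 43.1% in the highest. The filter also admits genes that reach it in either knockdown alone, and the direction of such genes is set by the filter.

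Genes with the largest changes were taken from those called, with at least 5 CPM in the higher group. Among the 12 furthest up in Falcor knockdown were Chil1, a secreted chitinase-like protein (14.4 against 0.24 CPM, log2 fold change 5.85), and C1s1, a complement protease (38.5 against 0.72 CPM, 5.75). Sema3a, a secreted guidance protein, Ggt1, which cleaves glutathione, Fuom, a fucose mutarotase, Prpf40b, a splicing factor, and Dhps, the enzyme that makes hypusine on eIF5A, followed at 4.41, 4.38, 4.25, 4.25 and 4.20. A further 4 of the 12 had 3 counts or fewer over the ZC3H11A knockdown libraries, so their ratios are given with exact 95% counting intervals. Sting1, the adaptor of cytosolic DNA sensing, had 102 counts against 1, a ratio of 87.7 (15.4 to 3495). Cyb5r1, a cytochrome b5 reductase, had 240 against 3 and a ratio of 68.7 (23.2 to 336). Upk3b, a uroplakin, had a ratio of 50.1 (16.9 to 245), and Bdh2, a dehydrogenase, one of 37.5 (12.6 to 184). Control levels differed among these genes: Chil1 was at 0.29 CPM and Bdh2 at 0.18 CPM, near the ZC3H11A knockdown, whereas Ggt1 was at 6.25 CPM and Fuom at 9.14 CPM, near the Falcor knockdown.

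The 12 furthest down were led by genes of secreted hepatocyte proteins. Apoa1, the main protein of high density lipoprotein, was at 0.32 against 44.4 CPM (log2 fold change -6.91 ± 0.70, adjusted p = 0.000301, edgeR), with the controls at 6.12 CPM. Serpina1a and Serpina1b encode alpha-1 antitrypsin and are near-identical copies, so reads could be divided between them in ways that these counts do not show. They were at 1.86 against 186 CPM and at 0.44 against 50.6 CPM, with the controls at 40.4 and 14.6 CPM. Ivl, the cornified envelope protein involucrin, was at 0.36 against 40.5 CPM, and at 1.04 CPM in the controls. Vmn2r79, a vomeronasal receptor gene, was at 0.75 against 19.9 CPM, Tmem252 at 0.58 against 16.0 CPM, and Fhl1, a LIM domain protein, at 0.73 against 16.8 CPM. Sult1a1, a phenol sulfotransferase, was at 1.46 against 30.4 CPM, and Rtl1, an imprinted retrotransposon-derived gene, at 0.39 against 8.15 CPM. H2-M9, a nonclassical MHC gene, and Ccn5, a matricellular protein, had 2 counts each in Falcor knockdown against 142 and 121, ratios of 82.6 (22.5 to 689) and 70.4 (19.1 to 588) in favour of ZC3H11A knockdown. The remaining gene of the 12 was Dusp1, described below.

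Secreted hepatocyte proteins as a list were lower in Falcor knockdown. The list holds plasma proteins made by liver cells, and 12 of its 30 genes were expressed enough to be tested. Of these, 10 were called lower and 1 higher, with a median log2 fold change of -1.65. Apoa1 and Serpina1b were too low in Falcor knockdown to pass the filter there, so their direction was set by the filter. The 10 were Apoa1, Serpina1a, Serpina1b, Ttr, Itih2, Apob, Trf, Alb, Hpx and Gc. Clu, the chaperone clusterin, was the higher one (0.27 ± 0.06, adjusted p = 0.00106, edgeR), and Rbp4, the retinol carrier, had a log2 fold change of -0.18 that did not pass the test (adjusted p = 0.0925, edgeR), although it did without shZC3H11A replicate 2 (-0.24, adjusted p = 0.049).

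Apob, the structural protein of very low density lipoprotein, stood at 54.2, 47.6 and 60.6 CPM in Falcor knockdown, at 228, 264 and 262 CPM in ZC3H11A knockdown and at 93.4, 76.4 and 101.1 CPM in the controls. The controls lay between the knockdowns without overlap, nearer to the Falcor knockdown. Its log2 fold change was -2.19 ± 0.09, with an adjusted p of 9.39e-12 by edgeR. Ttr, the thyroxine carrier transthyretin, was at 3.25, 0.63 and 4.93 CPM in Falcor knockdown, at 40.4, 47.9 and 53.1 CPM in ZC3H11A knockdown and at 117, 125 and 154 CPM in the controls (-3.83 ± 0.37, adjusted p = 6.3e-05, edgeR). For Ttr, both knockdowns lay below the controls. Trf, the iron carrier transferrin, averaged 279.5 ± 25.1 against 608 ± 57.4 CPM, and 690.4 ± 40.3 CPM in the controls. Alb, the main plasma protein of liver, averaged 11.1 against 23.3 CPM, and 57.7 CPM in the controls.

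Liver transcription factors were mixed. Of 15 tested, 4 were higher and 6 lower, or 5 and 4 where only library totals were used, with a median of -0.14. Hnf4a, the nuclear receptor that drives many hepatocyte genes, was at 59.4, 58.6 and 61.9 CPM in Falcor knockdown, at 183, 203 and 222 CPM in ZC3H11A knockdown and at 129, 125 and 128 CPM in the controls. No library of any group overlapped another group, and the controls were intermediate. The log2 fold change was -1.74 ± 0.08 (adjusted p = 4.83e-11, edgeR). Onecut2, a homeodomain factor of early liver, was also lower, at 59.7 against 228 CPM, with 314 CPM in the controls. Nr1h3, the oxysterol receptor LXR alpha, went the other way, at 13.0 against 4.33 CPM, with 13.8 CPM in the controls. Rxra, the shared partner of such receptors, was higher by 0.41 ± 0.07 on the log2 scale (adjusted p = 0.000176, edgeR).

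The cells were checked against markers of liver cell types. Of 11 hepatocyte markers, 8 were tested, and Tat, Cps1 and Asgr1 were each below 0.5 CPM in every group. The summed level of the 11 was 1970 to 2121 CPM per library in Falcor knockdown, 2348 to 2758 CPM in ZC3H11A knockdown and 2734 to 2928 CPM in the controls. Most of that sum was the keratins Krt8 (624, 606 and 770.3 CPM on average) and Krt18 (1045, 776 and 1000.0 CPM), while 6 of the 8 tested markers were lower in Falcor knockdown, each by at least 2-fold, with a median of -1.43. Biliary markers summed to 762 to 814, 663 to 734 and 772 to 858 CPM, with Epcam and Cftr at 0. Endothelial markers summed to at most 1.31 CPM in any library. The 8 stellate and fibroblast markers summed to 23.4 to 26.1, 17.9 to 21.9 and 10.5 to 16.99 CPM, of which nearly all was Des. Macrophage markers summed to 48.4 to 51.1 CPM in Falcor knockdown, 6.50 to 8.40 CPM in ZC3H11A knockdown and 4.12 to 5.60 CPM in the controls. That difference was Cd68, a lysosomal glycoprotein, at 50.1, 50.1 and 47.1 CPM against 6.39, 8.40 and 4.16 CPM (log2 fold change 2.98 ± 0.18, adjusted p = 9.01e-10, edgeR). The other 7 macrophage markers were each below 1 CPM on average in all groups, with Clec4f and Marco at 0.

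**Figure D2:**
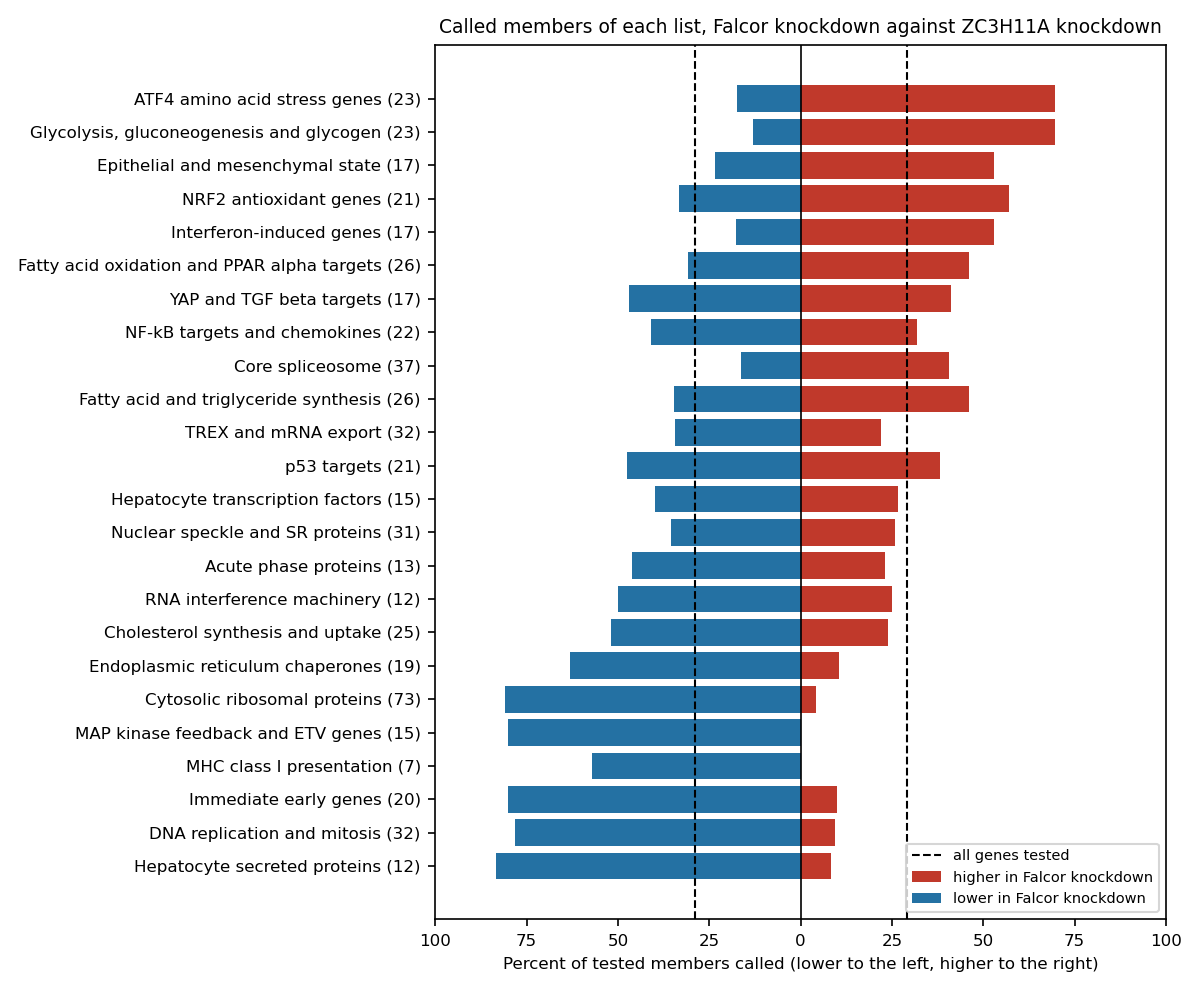
Percent of each list's tested members that were called higher (red, to the right) or lower (blue, to the left) in Falcor knockdown, with the number tested in brackets and lists ordered by median log2 fold change. Dashed lines mark 29.0% higher and 28.9% lower over all 11439 genes, and the bars of secreted hepatocyte proteins, immediate early genes and ribosomal proteins reach far past the line on the lower side.

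Genes that respond to MAP kinase signalling were lower in Falcor knockdown. Immediate early genes are switched on within minutes of a growth stimulus, and of 20 tested, 16 were lower and 2 higher, with a median of -1.17. The list of MAP kinase feedback genes holds phosphatases and adaptors that dampen ERK signalling, with ETV factors that ERK induces. Of its 15 tested members, 12 were lower and none was called higher, with a median of -0.70. Both shares, 80.0% for each list, stand beside 28.9% over all genes.

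Dusp1, a phosphatase of MAP kinases, was the most separated. It stood at 18.3, 16.1 and 19.7 CPM in Falcor knockdown, at 286, 283 and 279 CPM in ZC3H11A knockdown and at 143, 160.4 and 121 CPM in the controls. The groups did not overlap, and the controls lay between the knockdowns. Its log2 fold change was -3.94 ± 0.08, with an adjusted p of 1.57e-14 by edgeR. Errfi1, a feedback inhibitor of the EGF receptor, followed the same order, at 23.2, 26.5 and 27.7 CPM, 171, 168 and 186 CPM, and 82.5, 81.3 and 61.0 CPM in the controls (-2.75 ± 0.09, adjusted p = 9.05e-13, edgeR). Dusp5, a nuclear ERK phosphatase, was at 21.9 against 104 CPM, with the controls at 30.7 CPM. Spred1, an inhibitor of Ras signalling, was at 16.3 against 67.6 CPM, with the controls at 61.4 CPM. The controls thus lay close to the Falcor knockdown for Dusp5 and close to the ZC3H11A knockdown for Spred1.

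Among the immediate early genes, the mRNA decay factor Zfp36 was at 88.3 ± 5.16 against 336 ± 38.9 CPM, and 288 ± 29.6 CPM in the controls (log2 fold change -1.92 ± 0.08, adjusted p = 3.55e-11, edgeR). The AP-1 subunits Fos and Junb were at 72.6 against 233 CPM and at 293 against 801 CPM, and Ier5, a regulator of heat shock factor, was at 38.2 against 146 CPM. Control means of these 3 genes were 164, 499 and 94.8 CPM. Jund and Fosl2, further AP-1 subunits, were the 2 that were higher, by 0.36 ± 0.07 and 0.55 ± 0.10 on the log2 scale.

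Dusp1 is shown with the sequence before its start site, because it changed most of the signalling genes and holds a full cAMP response element. The 250 bases before the start are given 5′ to 3′ on the minus strand, chr17:26508473-26508722 (RefSeq, GRCm38.p6), with the element TGACGTCA in capitals.
Dusp1: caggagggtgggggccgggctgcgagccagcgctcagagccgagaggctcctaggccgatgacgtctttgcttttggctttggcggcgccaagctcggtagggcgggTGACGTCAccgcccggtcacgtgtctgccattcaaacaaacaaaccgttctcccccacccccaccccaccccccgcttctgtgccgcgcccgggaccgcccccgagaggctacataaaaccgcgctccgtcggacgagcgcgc
Its first base lies 143 bases before the start. TGACGTCA, which reads the same on both strands, was in 2.91% of the 8660 promoters of tested genes that the table holds. It was in 2.42% of those of genes called higher and 3.40% of those called lower. Among the MAP kinase feedback genes, 2 of 11 promoters held it, Dusp1 and Epha2, and among the immediate early genes 1 of 16 did, Btg2. A match of letters says nothing of binding.

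Targets of YAP and of transforming growth factor beta, which report on cell tension and matrix signalling, were split, with 7 of 17 higher and 8 lower. Ccn2, a matricellular protein, stood at 237, 224 and 222 CPM in Falcor knockdown, at 1364, 1449.8 and 1609.8 CPM in ZC3H11A knockdown and at 423, 406 and 503 CPM in the controls. No library overlapped another group, and the ZC3H11A knockdown was the highest (log2 fold change -2.69 ± 0.07, adjusted p = 6.54e-14, edgeR). Tgfb1, the cytokine, was at 45.5 against 148 CPM, with the controls at 116 CPM. Thbs1, thrombospondin, was opposite, at 92.4 ± 6.43 against 15.0 ± 3.53 CPM, with 90.0 ± 6.52 CPM in the controls (2.61 ± 0.14, adjusted p = 2.25e-10, edgeR).

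Genes of the amino acid stress response were higher in Falcor knockdown. The transcription factor ATF4 induces amino acid transporters, serine and glycine enzymes and stress regulators when amino acids are short. Of 23 tested members, 16 were higher (69.6%, beside 29.0% of all genes) and 4 lower, with a median of 0.76. Slc7a5, the large neutral amino acid transporter, stood at 149, 146 and 153 CPM in Falcor knockdown, at 49.6, 45.1 and 41.2 CPM in ZC3H11A knockdown and at 94.1, 98.0 and 109.5 CPM in the controls. The groups did not overlap, and the controls were intermediate (log2 fold change 1.73 ± 0.08, adjusted p = 8.38e-11, edgeR). The serine pathway enzymes Phgdh and Shmt2 were at 248 against 111 CPM and at 91.1 against 40.0 CPM, with the controls at 173 and 49.9 CPM. Sesn2, an inhibitor of mTORC1, was at 227 against 104 CPM, with 135 CPM in the controls. Atf4 itself was higher by 0.57 ± 0.08 (adjusted p = 2.53e-05, edgeR), at 147 against 99.6 CPM, but the controls were above both, at 163 CPM. The median level of the tested members was 54.4 CPM in Falcor knockdown, 40.0 CPM in ZC3H11A knockdown and 63.4 CPM in the controls. Higher here thus does not mean above the controls for the list as a whole. The 4 lower members were Ddit4, another inhibitor of mTORC1, Psat1 and Psph, which act beside Phgdh in serine synthesis, and Vldlr, a lipoprotein receptor. Within serine synthesis, Phgdh was thus higher while the 2 enzymes after it were lower, of which Psph (-0.47) was not called without shFalcor replicate 3 (adjusted p = 0.0547, edgeR).

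Chac1, an enzyme that degrades glutathione, was at 25.7 against 8.69 CPM (log2 fold change 1.54 ± 0.24, adjusted p = 8.01e-05, edgeR), and at 8.92 CPM in the controls. It is shown because it is 1 of 3 list members whose promoter held the amino acid response element TGATGCAA, searched on both strands. The 250 bases before its start are given 5′ to 3′ on the plus strand, chr2:119350992-119351241 (RefSeq, GRCm38.p6), with the element in capitals in its reverse complement.
Chac1: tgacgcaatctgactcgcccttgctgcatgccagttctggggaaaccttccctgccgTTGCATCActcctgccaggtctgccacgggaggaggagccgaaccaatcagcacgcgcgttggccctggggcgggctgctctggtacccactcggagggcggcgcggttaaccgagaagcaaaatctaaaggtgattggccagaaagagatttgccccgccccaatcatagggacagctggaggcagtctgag
Its first base lies 193 bases before the start. The other members with the element were Nupr1, a stress-induced chromatin protein (15.5 against 3.27 CPM), and Slc7a11, the cystine transporter (27.2 against 7.82 CPM), out of 20 list members in the promoter table. Outside this list, 1 of 16 promoters of immediate early genes held the element, that of Atf3, and 0 of 11 of MAP kinase feedback genes did. Atf3 went the other way, lower in Falcor knockdown at 18.65 against 37.46 CPM (adjusted p = 1.4e-05, edgeR), with 46.27 CPM in the controls. Of all 8660 promoters, 0.51% held the element, with 0.61% of those called higher and 0.36% of those called lower. These shares are descriptions of letters, and the motifs were chosen after matches had been seen.

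Genes of glucose metabolism were also mostly higher. Of 23 tested genes of glycolysis, gluconeogenesis and glycogen, 16 were higher (69.6%) and 3 lower, with a median of 0.35. Pfkl, the liver phosphofructokinase, stood at 115, 116 and 116 CPM in Falcor knockdown, at 20.3, 14.8 and 19.9 CPM in ZC3H11A knockdown and at 84.0, 83.7 and 92.5 CPM in the controls. The ZC3H11A knockdown was the low group, with no overlap (log2 fold change 2.65 ± 0.11, adjusted p = 1.03e-11, edgeR). The glucose transporter Slc2a1 was at 152 against 62.5 CPM, and the glycolytic enzymes Gpi1 and Eno1 were at 649 against 329 CPM and 466 against 225 CPM. Their control means were 105, 654 and 338 CPM. The 3 lower genes were Pfkp, the platelet phosphofructokinase, Pcx, pyruvate carboxylase, and Pgam1, a phosphoglycerate mutase. Of these, Pgam1 (-0.15) was not called when any library other than shZC3H11A replicate 2 was left out, and Pcx (-0.35) was not without shFalcor replicate 3 or shZC3H11A replicate 3.

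Oxidative stress genes that the factor NRF2 induces went both ways, with 12 of 21 higher and 7 lower. Hmox1, heme oxygenase, stood at 295, 259 and 281 CPM in Falcor knockdown, at 47.9, 40.2 and 46.4 CPM in ZC3H11A knockdown and at 100.1, 98.0 and 100.6 CPM in the controls. Srxn1, sulfiredoxin, showed the reverse, at 61.3, 64.7 and 61.5 CPM, 309.8, 289 and 385 CPM, and 109, 93.3 and 98.6 CPM in the controls. In both genes the controls lay between the knockdowns, without overlap. The log2 fold changes were 2.63 ± 0.08 for Hmox1 (adjusted p = 6.52e-13, edgeR) and -2.39 ± 0.10 for Srxn1 (adjusted p = 2.54e-10, edgeR). The glutathione transferase Gstm1 was higher, at 298 against 137 CPM, and Gclm, a subunit of the enzyme that starts glutathione synthesis, was lower, at 18.4 against 74.7 CPM. Control levels of these 2 were above both knockdowns, at 601 and 122 CPM.

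Lipid genes divided within each pathway. In fatty acid and triglyceride synthesis, 12 of 26 were higher and 9 lower. Gpam, which starts triglyceride assembly, was at 158 against 32.7 CPM (log2 fold change 2.27 ± 0.09, adjusted p = 1.18e-11, edgeR), whereas Acly, which makes cytosolic acetyl-CoA, was at 119 against 336 CPM (-1.49 ± 0.06, adjusted p = 1.3e-11, edgeR). The desaturase Scd2 was higher, at 1347 against 659 CPM, and the elongase Elovl6 lower, at 4.82 against 37.5 CPM. Control means of Gpam, Acly, Scd2 and Elovl6 were 115, 128, 1273 and 20.9 CPM. In fatty acid oxidation, 12 of 26 were higher and 8 lower. The thioesterase Acot2 was at 100.5 against 14.7 CPM, the thiolase Acaa2 at 167 against 50.6 CPM and the uptake receptor Cd36 at 37.3 against 9.73 CPM. Cpt1a, which admits fatty acids to mitochondria, was lower, at 431 against 638 CPM. In cholesterol synthesis and uptake, 13 of 25 were lower and 6 higher, with a median of -0.28. Where only library totals were used, 8 were lower. The sterol enzymes Ebp and Tm7sf2 were at 31.6 against 106 CPM and 34.9 against 85.7 CPM. Fdft1, the squalene synthase, and Srebf2, the regulator of the pathway, were higher, at 68.1 against 25.5 CPM and 587 against 271 CPM.

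**Figure D3:**
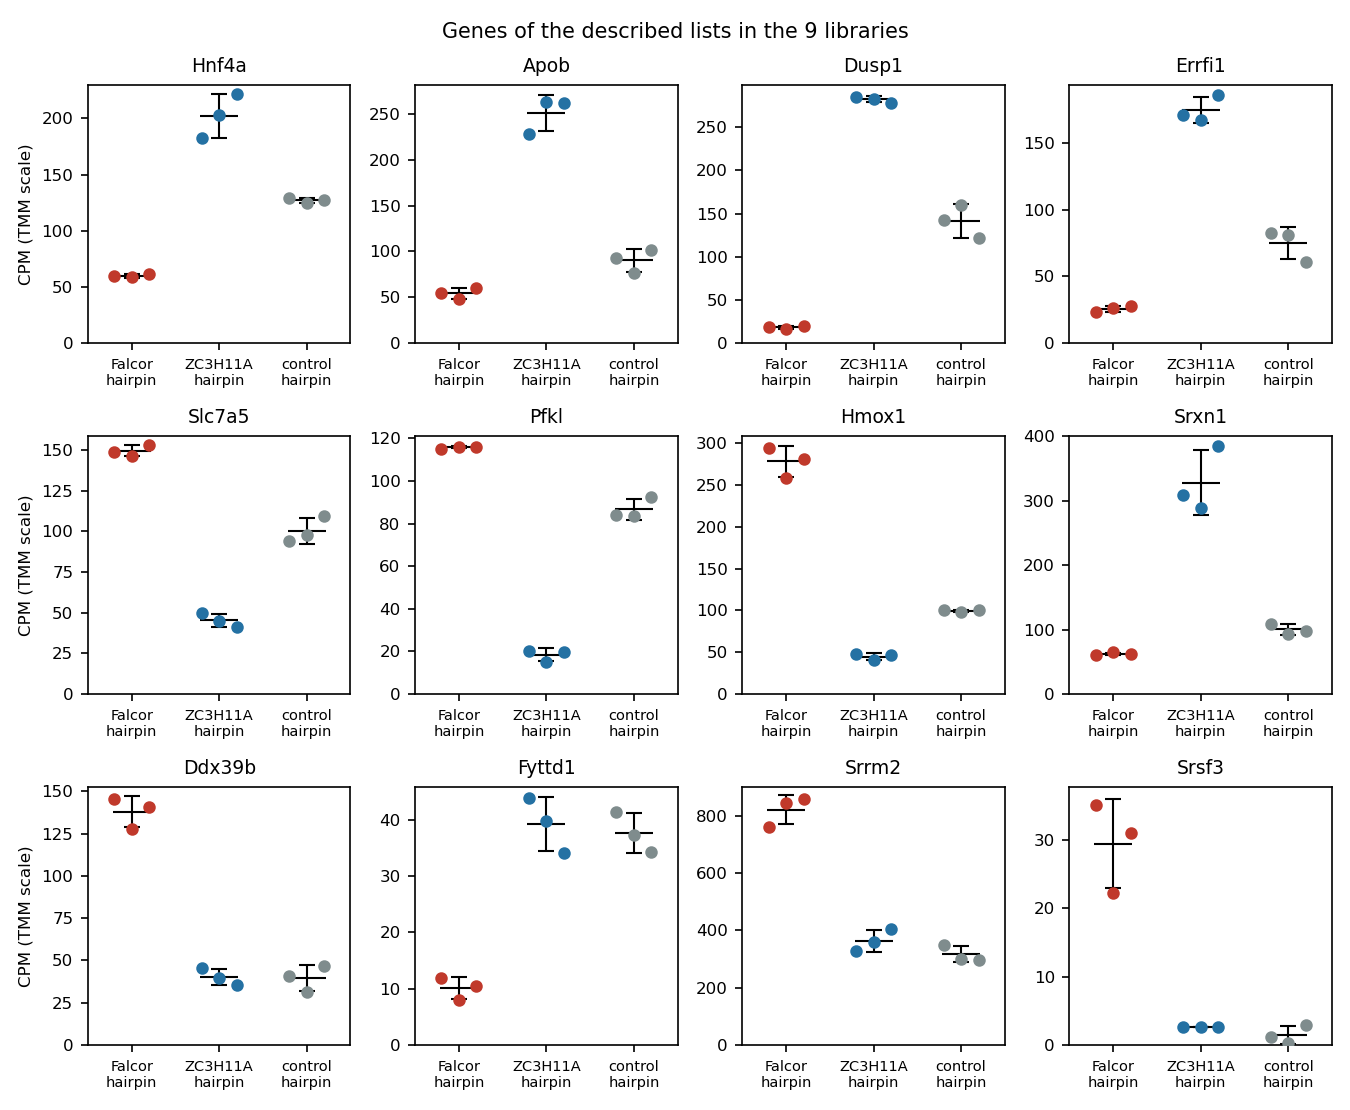
CPM on the TMM scale of 12 genes in each of the 9 libraries, as points, with the mean and SD of each group of 3 in black. The Falcor and ZC3H11A hairpins lie on opposite sides of the controls for Dusp1, Hnf4a, Hmox1 and Srxn1, while the controls overlap the ZC3H11A knockdown for Ddx39b, Fyttd1 and Srrm2.

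Ribosomal protein genes were lower in Falcor knockdown, mostly by less than 2-fold. Of 73 cytosolic ribosomal proteins tested, 59 were lower (80.8%) and 3 higher, with a median of -0.53. Their median levels, 426 and 627 CPM in the knockdowns, fall in the highest of the 5 bins of mean CPM, where 43.1% of genes were lower. Only 3 of the 59 were lower by at least 2-fold, while 2 of the 3 higher genes were higher by at least 2-fold. Rplp0, a protein of the ribosomal stalk, stood at 974, 969 and 965 CPM in Falcor knockdown, at 3224, 3114 and 3248 CPM in ZC3H11A knockdown and at 2531, 2565 and 2458 CPM in the controls (log2 fold change -1.71 ± 0.05, adjusted p = 3.2e-13, edgeR). Rps13 was at 55.4 against 366 CPM, with 363 CPM in the controls. Rps3a1 and Rps26 were at 539.5 against 1157 CPM and 656 against 1205 CPM. The higher genes included Rpl3 and Rpl39, of which Rpl39 was not called without shFalcor replicate 1 or 2 or shZC3H11A replicate 1 (log2 fold change 0.19 to 0.20 then). Ribosomal protein genes have many near-identical pseudogenes, and how reads were divided among them is not given in the sources used here.

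In the endoplasmic reticulum, 12 of 19 tested chaperone and quality control genes were lower and 2 higher, with a median of -0.28. Edem1, which directs misfolded glycoproteins to degradation, was at 81.7 ± 0.61 against 218 ± 5.37 CPM, with 138 ± 3.51 CPM in the controls (log2 fold change -1.41 ± 0.07, adjusted p = 5.17e-11, edgeR). Hspa5, the main chaperone of the compartment, was at 249 against 433 CPM, and the lectin chaperone Canx at 700.3 against 1029 CPM. Creld2, a secreted stress protein, was at 16.6 against 39.8 CPM. The higher genes were Herpud1 (0.55) and Ern1 (0.20), and Ern1 was not called without shFalcor replicate 1 or 3 or shZC3H11A replicate 3.

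DNA replication and mitosis genes were lower in Falcor knockdown, from low levels. Of 32 tested, 25 were lower (78.1%) and 3 higher, with a median of -1.38. Some of the lower members, such as Ccna2 (0.26 against 4.84 CPM), were too low in Falcor knockdown to pass the filter there. They were tested only because they are higher in ZC3H11A knockdown, so the share and the median partly reflect the filter. The median level of the members was 2.82 CPM in Falcor knockdown, 8.27 CPM in ZC3H11A knockdown and 3.53 CPM in the controls. The control median thus lay nearer to the Falcor knockdown, whereas Ccnd1 and Rrm2 had controls nearer to the ZC3H11A knockdown. Ccnd1, the G1 cyclin, stood at 417, 328 and 367 CPM in Falcor knockdown, at 1092, 1032 and 1040.4 CPM in ZC3H11A knockdown and at 874, 828 and 953 CPM in the controls. The Falcor knockdown was the low group (log2 fold change -1.50 ± 0.07, adjusted p = 3.68e-10, edgeR). Rrm2, a ribonucleotide reductase subunit, was at 31.7 against 88.5 CPM, with 85.1 CPM in the controls. Mki67, the proliferation antigen, was at 4.28 against 32.0 CPM, with 8.87 CPM in the controls (adjusted p = 0.066 with limma-voom), and Top2a, the mitotic topoisomerase, at 7.59 against 43.7 CPM, with 19.9 CPM in the controls. The 3 higher genes were E2f1, the S phase regulator (38.9 against 12.4 CPM), Cdt1, which licenses origins (32.4 against 14.4 CPM), and Rrm1, the partner of Rrm2 (103 against 54.1 CPM). Over bulk RNA, a change in the share of cycling cells and a change per cell cannot be told apart. When genes needed a mean of 50 counts, 13 of the list were tested and 9 were lower.

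**Figure D4:**
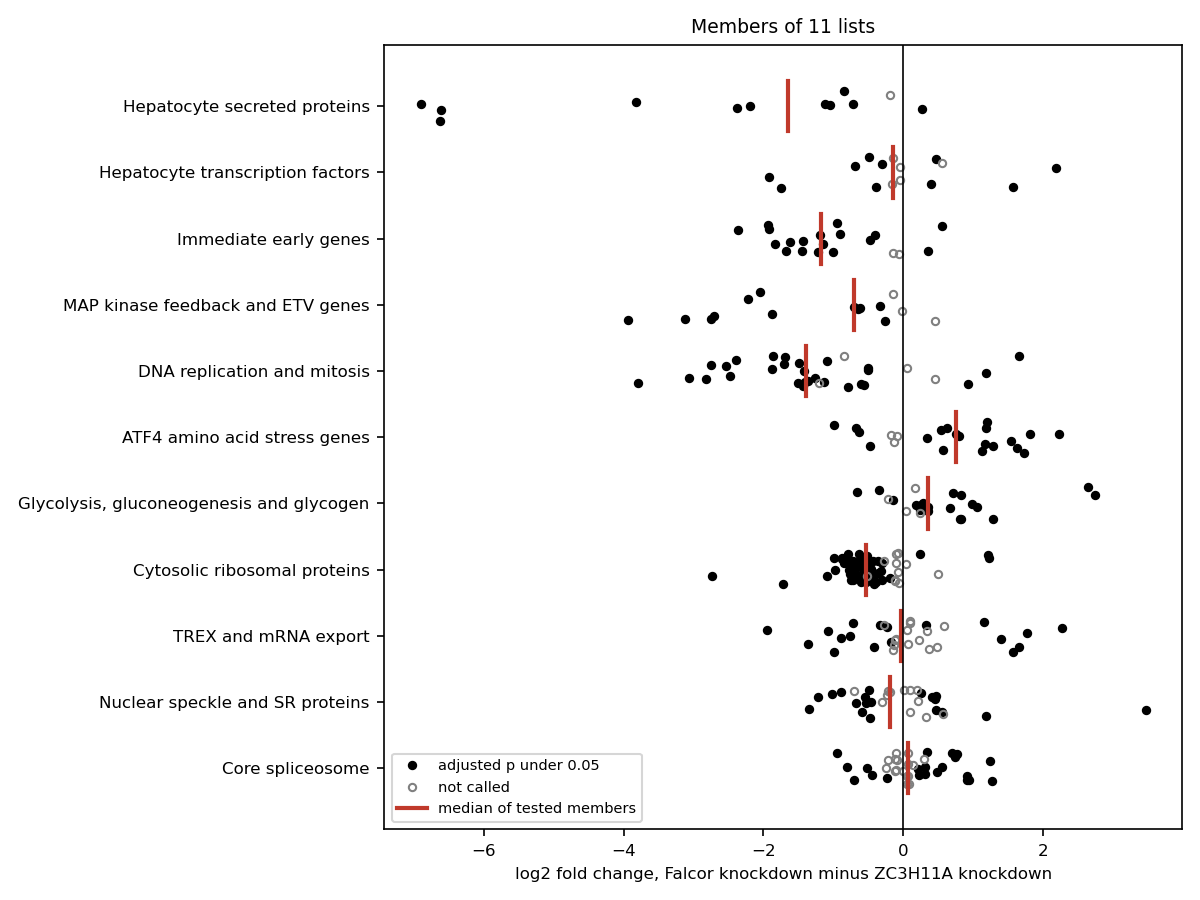
Log2 fold change of Falcor knockdown minus ZC3H11A knockdown for each tested member of 11 lists, with called members filled, others open, and the median of each list as a red bar. Medians run from -1.65 for secreted hepatocyte proteins to 0.76 for amino acid stress genes, and those of mRNA export and the core spliceosome lie near 0.

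Genes of the export and splicing machinery went both ways. Of 32 genes of TREX and mRNA export, 7 were higher and 11 lower, or 10 and 8 where only library totals were used. The median was -0.03, beside 0.00 for all genes. Zc3h11a is itself 1 of the 7. Ddx39b, the RNA helicase of TREX, stood at 145, 128 and 141 CPM in Falcor knockdown, at 45.3, 39.6 and 35.8 CPM in ZC3H11A knockdown and at 40.7, 31.3 and 46.5 CPM in the controls. The Falcor knockdown was the high group, and the others overlapped (log2 fold change 1.78 ± 0.10, adjusted p = 2.25e-10, edgeR). Fyttd1, the export adaptor UIF, was the reverse, at 11.8, 7.93 and 10.4 CPM, 43.8, 39.8 and 34.1 CPM, and 41.3, 37.3 and 34.3 CPM in the controls (-1.94 ± 0.16, adjusted p = 4.51e-08, edgeR). Ncbp3, a cap-binding protein, was at 35.4 against 91.7 CPM, with 46.9 CPM in the controls. Gle1, which acts at the cytoplasmic face of the nuclear pore, was at 31.3 against 14.0 CPM, with 25.8 CPM in the controls.

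Other members of the THO and TREX group split in the same way. Thoc2 was lower (log2 fold change -0.98 ± 0.13), and Thoc1 was higher by 1.40 ± 0.39. Sarnp, a partner of Ddx39b, was higher by 1.67 ± 0.22. The export receptor Nxf1 and the adaptor Alyref were at -0.15 ± 0.10 and 0.59 ± 0.26, and neither passed the test (adjusted p = 0.242 and 0.0671, edgeR). Without shZC3H11A replicate 1, Alyref was higher by 0.93 (adjusted p = 0.0111, edgeR).

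Of 31 nuclear speckle and SR protein genes, 8 were higher and 11 lower, or 10 and 7 where only library totals were used, with a median of -0.19. Srrm2, a scaffold protein of speckles, stood at 762, 843 and 858 CPM in Falcor knockdown, at 327, 361 and 404 CPM in ZC3H11A knockdown and at 348, 302 and 298 CPM in the controls. The Falcor knockdown was high and the others overlapped (log2 fold change 1.18 ± 0.07, adjusted p = 2.31e-09, edgeR). Son, the other scaffold of the speckle core, was higher by 0.26 ± 0.07 (adjusted p = 0.00804, edgeR), but not without shZC3H11A replicate 1 (0.19, adjusted p = 0.0648). Srsf3, an SR splicing factor, was at 35.2, 22.3 and 31.0 CPM in Falcor knockdown against 2.64, 2.65 and 2.71 CPM, with 1.17, 0.36 and 2.97 CPM in the controls (3.47 ± 0.23, adjusted p = 2.21e-09, edgeR). How reads of Srsf3 were divided among its transcripts and copies is not given in the sources used here, and its part in these low levels was not tested. Tra2b, a splicing activator, was lower, at 15.3 against 35.3 CPM, and Srrm1, a coactivator of splicing, was higher, at 235 against 160.1 CPM.

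Of 37 core spliceosome genes, 15 were higher (40.5%, beside 29.0% of all genes) and 6 were lower, with a median of 0.08. Sf3b2, of the U2 particle, was at 502 ± 18.7 against 268 ± 7.89 CPM, with 448 ± 13.1 CPM in the controls (log2 fold change 0.92 ± 0.06, adjusted p = 1.66e-09, edgeR). Snrpd3, an Sm protein, was at 41.1 against 16.98 CPM, Sf3a2 at 54.8 against 28.7 CPM, and Prpf19, which helps activate the spliceosome, at 292 against 199.7 CPM. The largest decrease in the list was Hnrnpa2b1, at 14.1 against 26.8 CPM.

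Both groups carry a hairpin that enters the RNA interference pathway, and its genes differed. Of 12 tested, 3 were higher and 6 lower, with a median of -0.25. Ago2, the Argonaute that cleaves targets, was higher, at 704 ± 51.4 against 491 ± 13.8 CPM (log2 fold change 0.53 ± 0.06, adjusted p = 1.42e-06, edgeR), with 462 ± 9.80 CPM in the controls. Ago3 was lower, at 26.8 against 93.7 CPM, with 29.5 CPM in the controls, and the Argonaute partner Tnrc6a was lower, at 65.1 against 187 CPM, with 108 CPM in the controls. Drosha, which cuts primary microRNAs, was higher, at 55.5 against 35.1 CPM. The part of these differences in the other results was not tested.

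Interferon-induced genes were mostly higher in Falcor knockdown, and MHC class I genes mostly lower. Of 17 interferon-induced genes, 9 were higher (52.9%) and 3 lower, with a median of 0.28. When genes needed a mean of 50 counts, 8 were tested and 3 were higher. Some of the higher members, such as Sting1 (5.08 against 0.06 CPM), were too low in ZC3H11A knockdown to pass the main filter there. Besides Sting1, the antiviral genes Oasl1 and Ifit1 were higher, at 7.45 against 1.43 CPM and 5.73 against 1.54 CPM, with 4.58 and 17.6 CPM in the controls. Irf7, a regulator of interferon genes, was lower, at 3.38 against 7.32 CPM. In MHC class I presentation, 4 of 7 tested genes were lower and none was called higher. B2m, the shared light chain, stood at 151, 132 and 159 CPM in Falcor knockdown, at 266, 252 and 260.3 CPM in ZC3H11A knockdown and at 519, 538 and 529 CPM in the controls. Both knockdowns lay below the controls, and the Falcor knockdown was lowest (log2 fold change -0.81 ± 0.07, adjusted p = 5.79e-08, edgeR). Tapbp, the peptide loading protein tapasin, was at 74.5 against 195 CPM. The heavy chains H2-D1 and H2-K1, which share sequence with other class I genes, were at 74.0 against 129.9 CPM and 12.4 against 29.0 CPM.

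Acute phase and NF-kB genes were split. Of 13 acute phase genes, 3 were higher and 6 lower. Lbp, which binds bacterial lipopolysaccharide, was at 967 against 1874 CPM (log2 fold change -0.95 ± 0.06, adjusted p = 8.27e-10, edgeR), and its regulator Cebpb at 160.2 against 278 CPM. Stat3, the transcription factor of the response, was higher, at 161 against 68.5 CPM, and so was Il6st, the shared receptor chain, at 425 against 272 CPM. Of 22 NF-kB targets and chemokines, 7 were higher and 9 lower. Csf1, the macrophage growth factor, was at 434 against 189 CPM and the chemokine Cxcl1 at 153 against 93.6 CPM. Control means of both genes were above the knockdowns, at 633 and 260 CPM. The NF-kB subunit gene Nfkb1 was at 23.8 against 60.6 CPM and the inhibitor Tnfaip3 at 221 against 350.1 CPM, with the controls at 31.4 and 371 CPM.

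Epithelial and mesenchymal genes were mixed in direction within both classes. Of 17 tested, 9 were higher (52.9%) and 4 lower, with a median of 0.34. Cdh1, the epithelial cadherin, stood at 165, 164 and 177 CPM in Falcor knockdown, at 57.4, 62.1 and 54.2 CPM in ZC3H11A knockdown and at 120.4, 125 and 128 CPM in the controls (log2 fold change 1.55 ± 0.08, adjusted p = 1.02e-10, edgeR). The mesenchymal genes Cdh2 and Vim were higher as well, at 165 against 92.1 CPM and 1045 against 622 CPM. Zeb1, a mesenchymal transcription factor, and the adhesion receptor Cd44 were lower, at 28.5 against 48.4 CPM and 324 against 373 CPM, and S100a6, Snai1 and Snai2 did not pass the test (log2 fold changes -0.14, -0.55 and -0.10). Cd44 was not called without shFalcor replicate 2 (-0.13), and S100a6 was called lower without shFalcor replicate 1 (-0.25). The keratins Krt7 and Krt20 were lower too, at 253 against 338 CPM and 381 against 516 CPM. Cldn4, a tight junction protein, had 62 counts in Falcor knockdown and none in ZC3H11A knockdown, which is at least 17.8-fold higher when 3 counts over the group are taken as the floor. Targets of p53 were split, with 8 of 21 higher and 10 lower. Pmaip1, a death effector, and Perp, a junction protein, were lower, at 113 against 312 CPM and 397 against 832 CPM. Sesn1, a stress sensor, and Rrm2b, a ribonucleotide reductase subunit, were also lower, at 5.53 against 28.9 CPM and 11.9 against 47.6 CPM. Among the 8 higher, Ccng1, a cyclin, was at 933.5 against 268.7 CPM and Bax, a death effector, at 61.2 against 26.9 CPM. Trp53 itself was higher by 1.23 ± 0.11 (adjusted p = 8.28e-08, edgeR).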

How the data were processed

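RNA sequencing counts of 9 AML12 libraries were used, 6 of them in the test. The deposited table holds whole-number counts per gene. Per the submitters' processing notes, the tools were kallisto and DESeq2 and the build mm10; versions, roles, annotation and counting settings were not given in the sources used here. Of 56775 rows, 11439 passed edgeR's filterByExpr (minimum count 10, minimum total 15). Falcor knockdown minus ZC3H11A knockdown was tested with edgeR 4.0.16 in R 4.3.3 (TMM scaling, quasi-likelihood test, robust estimation), with Benjamini-Hochberg adjustment over all tested genes. Standard errors were the log2 fold change divided by the square root of F. CPM used TMM factors of all 9 libraries. The alternatives used DESeq2 1.42.0 and limma 3.58.1. The fit was also run on simulated counts with the same dispersion for every gene and most genes unchanged, unlike the data here. It recovered 90% of 2-fold and 41% of 1.41-fold changes, and called 0.0356% of the unchanged genes. So it does not show how the fit performs on the data here. The median variance over mean across the 3 libraries of a group was 1.98 to 2.08, above counting noise. That value does not show whether replicates came from separate cultures. In this table, 36 tested rows shared all 6 counts with another row.

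Coordinates are those of GENCODE M21 (mm10), matched by symbol for 11028 of the tested genes; a few symbols are newer than that release. Promoters came from RefSeq, matched by symbol for 8660, using the first listed start. The groups came from the sample titles. Members and lists were chosen with earlier results of these data known. Named were Falcor, Zc3h11a, Foxa2, the 12 largest changes in each direction among called genes with at least 5 CPM in the higher group, a gene symbol and no overlap, and up to 4 members of each list with the smallest p. Other names were added after their values were seen, to account for members that went against their list or because of their role: Alb, Alyref, Atf3, Atf4, Bax, Btg2, Ccna2, Ccng1, Cd44, Cd93, Chac1, Cldn4, Clu, Ddit4, Des, Epha2, Ern1, Fosl2, Gc, Herpud1, Hnrnpa2b1, Hpx, Itih2, Jund, Krt20, Krt8, Malat1, Mki67, Nupr1, Nxf1, Pcx, Pfkp, Pgam1, Psat1, Psph, Rbp4, Rpl3, Rpl39, Rrm1, S100a6, Sarnp, Slc7a11, Snai1, Snai2, Son, Thoc1, Thoc2, Top2a, Trp53, Vldlr, Zbed6 and Zeb1. A few genes that the rule takes are not reported here.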

Additional observations from a re-analysis of the deposited data

How the results depend on the processing

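Over 14 alternatives, the number of called genes stayed between 5758 and 6760, against 6618. Leaving out each library in turn gave 6136 to 6496. The fit with the replicate number as a block (a replicate block) called 6467, and since the labels give only shared numbers and the deviations of same-numbered libraries correlated at -0.018, 0.024 and -0.035, the samples were not treated as pairs. With library totals only, 2 of the 6618 called genes had the opposite sign, and none had under the other 13 alternatives. Genes at least 2-fold higher, a count added after seeing the data, numbered 811 instead of 1220 when a mean count of 50 was required, which tested 8780 genes. Genes that the rule takes or the text names, apart from Atf3, Bax, Ccna2 and Ccng1, kept direction and call in 2690 of 2737 values. Signs turned only with library totals for Nxf1 (0.005), Pgam1 (0.007), S100a6 (0.01), Snai2 (0.043) and Zbed6 (0.058), without shFalcor replicate 1 for Zbed6 (range -0.221 to 0.09 over the libraries left out) and without shFalcor replicate 3 or shZC3H11A replicate 1 for Snai2 (range -0.374 to 0.068); of these, Pgam1 alone had been called. With the replicate block Alyref passed (0.63, adjusted p = 0.0259, edgeR). Falcor was fitted only without a filter (0.12, adjusted p = 0.95, edgeR) or with all 9 libraries (0.10, adjusted p = 0.904, edgeR). List counts moved by over 1.5 times in few cases, whose cause was not tested. With library totals only, MAP kinase feedback genes higher numbered 1 and not 0, chaperones higher 4 and not 2, glycolysis lower 1 and not 3, speckle genes lower 7 and not 11, and cholesterol genes lower 8 and not 13. The replicate block gave 1 higher MAP kinase feedback gene. Without a filter, or with DESeq2, 1 chaperone was higher. A mean count of 50 left 9 replication genes lower of 13 tested and 3 interferon genes higher of 8 tested, because fewer genes were tested. Leaving out 1 library gave 0 to 1 MAP kinase feedback genes higher (1 without shZC3H11A replicate 1), 1 to 2 chaperones higher (1 without shFalcor replicate 1 or 3 or shZC3H11A replicate 3), 1 to 4 glycolysis genes lower (1 without shFalcor replicate 3 or shZC3H11A replicate 3) and 1 to 3 interferon genes lower (1 without shZC3H11A replicate 1). With genes divided by mean CPM of the 6 libraries into 5 bins of like size, 19.9% of the lowest bin were called higher and 14.2% lower, against 34.9% and 43.1% of the highest.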

Other observations

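Matrix and adhesion genes differed by chain. Of 27 tested genes of collagens, matrix and proteases, 10 were higher and 10 lower in Falcor knockdown, with a median log2 fold change of 0.01. The integrin chain Itga3, a laminin receptor subunit, stood at 1127, 1191 and 1226 CPM in Falcor knockdown, at 331, 369 and 323 CPM in ZC3H11A knockdown and at 525, 519 and 534 CPM in the controls (1.80 ± 0.06, adjusted p = 2.47e-12, edgeR). The basement membrane genes Col4a2 and Lamc1 were lower, at 487 against 1408 CPM and 271 against 607 CPM, and so was Sparc, a matricellular protein, at 131 against 352 CPM. The respiratory chain encoded in the nucleus was balanced, with 12 of 44 higher and 12 lower. Cox5a, a cytochrome oxidase subunit, was at 14.97 against 88.4 CPM, with 22.8 CPM in the controls. Sdhc, Atp5c1 and Ndufb9, subunits of complex II, the ATP synthase and complex I, were higher, at 110.5 against 28.2 CPM, 156 against 57.0 CPM and 142 against 54.4 CPM.

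Among nuclear and structural noncoding RNAs, 1 of 18 was higher and 4 were lower. Neat1, the scaffold RNA of paraspeckles, stood at 527, 812 and 638 CPM in Falcor knockdown, at 1554, 1889.96 and 1677 CPM in ZC3H11A knockdown and at 829.8, 705 and 599.6 CPM in the controls (-1.37 ± 0.19, adjusted p = 0.00253, edgeR). The speckle RNA Malat1 was at -0.80 ± 0.25 and did not pass the test (adjusted p = 0.0544, edgeR), although it did without shZC3H11A replicate 3 (-0.97, adjusted p = 0.0334) and with DESeq2 (adjusted p = 0.00374). Gas5, a snoRNA host, was lower at 135 against 239.7 CPM, and Rn7sk, which restrains transcription elongation, was higher by 0.63 ± 0.10 (adjusted p = 0.000815, edgeR). Histone genes taken by symbol were lower in 20 of 46 and higher in 3, with a median of -0.49. The symbols were those of replication-dependent histones, whose mRNAs lack a poly(A) tail, and of linker histones, not all of which are replication-dependent. In the circadian clock, 5 of 15 were higher and 2 lower, with the output factors Tef and Dbp at 179 against 104 CPM and 15.9 against 7.17 CPM, and Per2 at 22.7 against 49.7 CPM.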
